A study of Mus musculus with 11 samples.

Results

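The 34 genes described here are genes of white and brown fat cells: secreted adipokines, coats of the lipid droplet, genes of heat production, the transcription factors of fat cell formation, and enzymes of lipid uptake, storage and synthesis. They were taken by symbol from a list of such genes, and each symbol matched 1 of the 48709 mouse gene rows of the deposited tables. Expression was measured by bulk RNA sequencing of the aortic arch of mice at postnatal day 11. WT stands for 5 wild-type littermates (Tgfbr2 +/+, WT 1 to 5) and Het for 6 mice that carry 1 Tgfbr2 allele with the G357W change beside a normal allele (Het 1 to 6). Tgfbr2 is the gene of the type II TGF-beta receptor, and the Het mice model Loeys-Dietz syndrome, in its type II, an inherited disorder of connective tissue with aortic aneurysms. Neither treatment, strain nor sex is labelled, and the labelled cell types are vascular smooth muscle and endothelium. Each library was taken as 1 animal. The fat genes were read in RNA of the arch as a whole, and the labels name no fat tissue.

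The thoracic aorta is wrapped in perivascular fat, which in mice has the character of brown fat. Brown fat cells hold many small lipid droplets and burn fatty acids in their mitochondria, where the protein encoded by Ucp1 lets protons leak across the inner membrane so that energy leaves as heat. White fat cells store triglyceride in 1 large droplet and secrete hormones such as leptin and adiponectin. Pparg and the C/EBP factors drive the formation of both kinds of cell.

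The libraries held between 13113467 and 19327935 counts, with means of 15245411 in WT and 14667075 in Het. A count of 0 allows a level of up to 3 counts, which was 0.154 to 0.231 CPM (counts scaled to library size); this limit covers counting error only. Smooth muscle marker genes summed to between 33336 and 37795 CPM in WT and between 30207 and 41158 CPM in Het, and endothelial markers to between 313 and 435 and between 286 and 465 CPM. The 34 fat genes together took 0.133 to 0.496% of the reads per library. Xist, expressed from the inactive X chromosome, lay between 58.4 and 78.6 CPM in all 5 WT libraries, Het 1 and Het 2, and at most at 0.735 CPM in Het 3 to 6, where the Y-linked gene Ddx3y lay between 86.4 and 110 CPM. Genotype and sex are therefore partly the same split: the 4 Y-positive libraries were all Het.

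The label was checked against the genes that define each kind of fat. Ucp1 and Cidea, both marks of brown fat, were the fat genes with the most RNA per length: on the RPKM scale, which divides CPM by exon length in kilobases, Ucp1 had a mean level of 401 in WT and 403 in Het, and Cidea of 390 and 311. Adipoq, made by white and brown fat cells, had a level of 24.7 RPKM in both groups. Lep and Retn, adipokines of mature white fat cells in mice, had at most 16 and 7 counts in any library. Zic1 and Lhx8, transcription factor genes known from brown fat between the shoulder blades, had at most 1 and 5 counts. The libraries thus held RNA of thermogenic fat genes, while the white adipokines Lep and Retn were near or under the detection limit. Cfd, another adipokine, had 21.2 RPKM in WT and 14.2 in Het. Of 10 other tested white fat genes, 4 had a Pearson correlation with Adipoq above 0.9 across libraries, and of 12 other brown fat genes 2 had. How much white fat the samples held was not tested.

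Promoters are shown for 4 genes that rose and fell together among the libraries, as described further on, and for Plin4, which did not follow them. Of the 34 genes, 24 had an entry in the RefSeq promoter table (GRCm38.p6), with 29 promoters in all. Each sequence is the 250 bases before the annotated start of transcription, written from 5′ to 3′ on the strand of the gene, and capitals mark matches to TTGCNNAA, a C/EBP-type motif searched on both strands. Cidec has a pair of promoters in the table, and the one that holds the motif is shown.
Adipoq (chr16:23146286-23146535, plus strand): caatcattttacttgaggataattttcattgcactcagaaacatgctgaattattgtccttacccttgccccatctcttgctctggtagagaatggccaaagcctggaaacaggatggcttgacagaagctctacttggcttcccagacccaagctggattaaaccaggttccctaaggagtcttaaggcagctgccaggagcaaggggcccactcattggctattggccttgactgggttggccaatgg
Ucp1 (chr8:83290098-83290347, plus strand): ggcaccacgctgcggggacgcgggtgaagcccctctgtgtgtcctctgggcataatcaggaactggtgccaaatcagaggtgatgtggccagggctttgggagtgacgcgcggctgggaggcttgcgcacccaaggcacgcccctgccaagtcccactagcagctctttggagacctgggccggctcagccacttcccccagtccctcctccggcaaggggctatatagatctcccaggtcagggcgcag
Cidec (chr6:113434765-113435014, minus strand): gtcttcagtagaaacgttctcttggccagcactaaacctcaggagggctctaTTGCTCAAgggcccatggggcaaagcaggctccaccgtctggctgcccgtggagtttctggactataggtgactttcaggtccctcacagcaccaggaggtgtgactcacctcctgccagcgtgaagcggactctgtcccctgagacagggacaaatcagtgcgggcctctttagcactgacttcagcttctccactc
Plin1 (chr7:79732777-79733026, minus strand): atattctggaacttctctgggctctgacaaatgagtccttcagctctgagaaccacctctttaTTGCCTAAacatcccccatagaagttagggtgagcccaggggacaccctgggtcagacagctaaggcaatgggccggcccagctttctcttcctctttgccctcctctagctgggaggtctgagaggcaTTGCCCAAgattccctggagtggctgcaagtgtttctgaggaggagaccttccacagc
Plin4 (chr17:56109783-56110032, minus strand): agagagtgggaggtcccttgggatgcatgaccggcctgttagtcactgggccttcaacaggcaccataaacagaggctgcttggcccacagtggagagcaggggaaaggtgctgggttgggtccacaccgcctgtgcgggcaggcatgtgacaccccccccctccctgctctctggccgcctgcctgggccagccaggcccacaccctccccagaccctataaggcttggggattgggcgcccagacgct
TTGCNNAA was in 4 of the 29 promoters, those of Lep, Cidec, Pparg and Plin1, and in 9.56% of all 32851 promoters in the table. Plin1 held it at 2 places, which begin 187 and 58 bases before the start, as TTGCCTAA and TTGCCCAA. The nuclear receptor half-site AGGTCA was in 7 of the 29 and in 14.02% of all promoters, and in Ucp1 it begins 14 bases before the start. Its direct repeat with 1 base between the half-sites was in 0 of the 29 and in 0.0335% of all. TATAAA was in 2 of the 29, those of Pparg and Cebpa, and in 12.4% of all. These matches are descriptions of letters in a window and say nothing of binding.

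The comparison of Het with WT asks whether a heterozygous Tgfbr2 mutation goes with another level of fat gene RNA in the arch. No fat gene passed the threshold. Of the 34 genes, 31 had enough counts to be tested, and 0 rose and 0 fell by edgeR's quasi-likelihood test at an adjusted p under 0.05. Of all 14757 tested genes 5.03% were called, 2.65% as higher and 2.38% as lower. At an unadjusted p under 0.05 there were 3, Fabp3, Scd1 and Dgat1, which is a smaller share than the 19.4% of all tested genes. The groups overlapped for every tested fat gene, while 4.61% of all tested genes had groups that did not overlap (2.41% with Het higher, 2.2% with Het lower). Log2 fold changes were above 0 for 17 genes and below 0 for 14, with a median of 0.0062 beside -0.0046 for all tested genes. DESeq2 called Scd1 as higher and Fabp3 as lower, beside 1295 of all 14757 genes. Limma voom called 0 fat genes, beside 778 of all genes. The median moved with WT 5 and with the sex-linked genes. Without WT 5 it was 0.36, with 24 of the 31 log2 fold changes above 0 and 1 fat gene, Scd1, past the threshold. That fit called 799 of 14991 genes, with a median over all genes of 0.0016. With a score of sex-linked genes as a covariate the median of the fat genes was 0.52, and in the 7 Xist-positive libraries alone 0.39. Each had 26 of the 31 above 0 and 0 fat genes past the threshold. These fits called 125 of 14757 and 34 of 15600 genes, with medians over all genes of -0.0096 and -0.0055. The share of all genes above 0 was not computed, and the fat genes vary together. The tests leave wide margins, because the 95% intervals of 20 of the 31 genes reached past a 2-fold change in at least 1 direction and those of the other 11 did not.

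Among the adipokines and markers of mature fat cells, Adipoq, Fabp4 and Cfd were each highest in WT 5 and lowest in Het 4 and Het 5, while Lep and Retn had few counts and another order. Adipoq (ENSMUSG00000022878, chromosome 16, 23146536 to 23158028), which encodes adiponectin, lay at 26.9, 27.1, 16.9, 26.6 and 73.2 CPM in WT 1 to 5 and at 48.8, 45.9, 52.1, 10.7, 9.48 and 37.5 CPM in Het 1 to 6. WT 5 was the highest of all libraries, Het 4 and Het 5 the lowest, and the Het group spanned both sides of the other 4 WT libraries. The mean levels of WT (34.1 ± 22.3 CPM, SD, n = 5) and Het (34.1 ± 19.2 CPM, SD, n = 6) were close, with a log2 fold change of 0.00 ± 0.53 (SE) and a 95% interval from -1.16 to 1.16. Fabp4, the fatty acid carrier of fat cells, lay at 61.8, 76.8, 55.0, 86.1 and 234 CPM in WT 1 to 5 and at 127, 186, 172, 48.7, 49.7 and 129 CPM in Het 1 to 6. It repeated the order of Adipoq at its ends, with WT 5 highest and Het 4 and Het 5 lowest, and its log2 fold change was 0.21 ± 0.49. Cfd, which encodes the adipokine adipsin, had the widest span of the tested fat genes, 21.4-fold between its lowest and highest library. It lay at 4.70, 17.2, 13.2, 14.8 and 47.6 CPM in WT 1 to 5 and at 29.6, 11.0, 27.0, 2.31, 2.22 and 6.54 CPM in Het 1 to 6, a log2 fold change of -0.57 ± 0.77. WT 5 was again highest and Het 5 lowest, with a log2 interval from -2.29 to 1.14. Retn, which encodes resistin, had 1, 0, 0, 2 and 1 counts in WT and 7, 1, 0, 0, 0 and 1 counts in Het. Lep, which encodes leptin, had 0, 7, 0, 1 and 16 counts in WT and 2, 0, 0, 0, 0 and 0 counts in Het. WT 5 held the most Lep counts and Het 1 the most Retn counts, and both genes were too low to be tested.

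**Figure D1:**
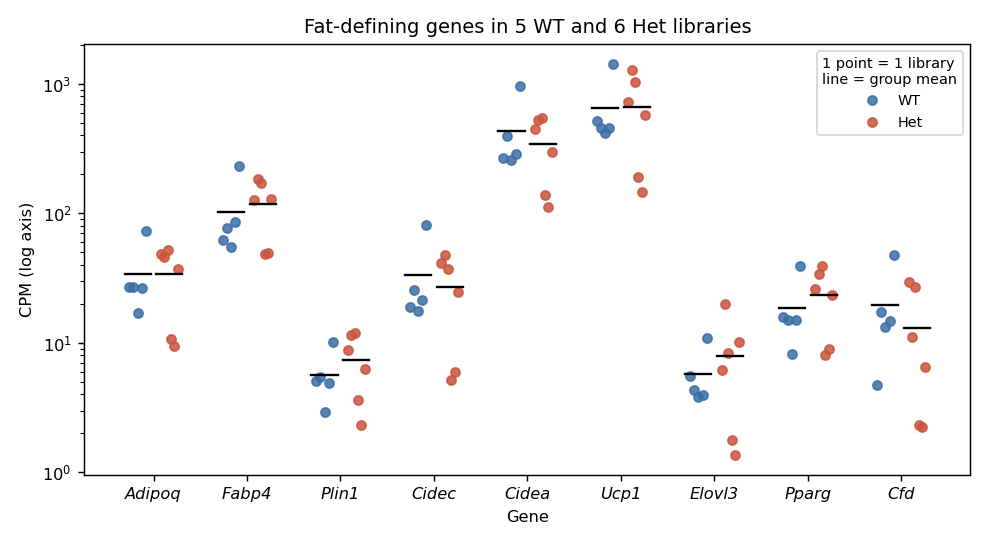
CPM on a log axis for 9 genes that define fat cells, with 1 point per library for 5 WT and 6 Het libraries and a line at each group's mean. For Adipoq the groups overlap, with WT 5 at 73.2 CPM at the top and Het 4 and Het 5 at 10.7 and 9.48 CPM at the bottom, and each of the other 8 genes is lowest in Het 4 or Het 5.

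Of the lipid droplet genes, Plin1, Cidea and Cidec varied with Adipoq, Plin5 less closely, and Plin4 hardly varied. Plin1, the main coat protein of fat cell droplets and a gate to lipolysis, lay at 5.03, 5.43, 2.93, 4.92 and 10.1 CPM in WT 1 to 5 and at 8.87, 11.5, 11.8, 3.62, 2.33 and 6.27 CPM in Het 1 to 6. Here Het 3 was highest rather than WT 5, and Het 5 lowest, with a log2 fold change of 0.38 ± 0.40. Cidea, a droplet protein known from brown fat, lay at 269, 396, 257, 290 and 963 CPM in WT and at 451, 528, 550, 139, 112 and 298 CPM in Het. Cidec, which enlarges droplets by fusing them, lay at 19.1, 25.8, 17.6, 21.6 and 81.8 CPM in WT and at 41.7, 47.9, 37.0, 5.15, 5.91 and 24.7 CPM in Het. For both, Het 1 to 3 lay above WT 1 to 4, and Het 4 and Het 5 below them, so the log2 fold changes of -0.33 ± 0.52 and -0.29 ± 0.65 join libraries on both sides of WT. Plin5, which ties droplets to mitochondria, averaged 10.5 ± 3.11 (WT) and 7.80 ± 5.19 CPM (Het), a log2 fold change of -0.43 ± 0.42. Its r with Adipoq was 0.745 (adjusted p = 0.486 over all genes by the permutation test described further on) and 0.591 without WT 5 and Het 5. Plin4 lay between 60.3 and 97.5 CPM in WT and between 61.3 and 72.9 CPM in Het, or -0.21 ± 0.11 as a log2 fold change (adjusted p = 0.314). Its 1.62-fold span between libraries compares with 15.9-fold for Cidec.

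The thermogenic genes showed the same contrast. Ucp1 (ENSMUSG00000031710, chromosome 8, 83290352 to 83298452) lay at 518, 453, 414, 461 and 1437 CPM in WT 1 to 5 and at 729, 1283, 1031, 189, 147 and 578 CPM in Het 1 to 6. WT 5, Het 2 and Het 3 were the highest, Het 4 and Het 5 the lowest, and the log2 fold change was 0.01 ± 0.60 with an interval from -1.34 to 1.35. Elovl3, an elongase of very long fatty acids in brown fat, lay at 5.56, 4.29, 3.80, 3.97 and 11.0 CPM in WT and at 6.13, 19.9, 8.38, 1.77, 1.35 and 10.1 CPM in Het. Its highest library was Het 2, and its log2 fold change was 0.48 ± 0.58. Ppargc1a, the coactivator that drives mitochondrial genes, varied 2.48-fold between libraries, with means of 13.7 ± 3.28 CPM in WT and 14.3 ± 3.88 CPM in Het. Prdm16, a regulator of brown fat identity, varied 1.56-fold, with means of 130.3 ± 26.5 and 131.7 ± 11.9 CPM. Unlike Ucp1, Prdm16 was lowest in WT 5, at 103.6 CPM, with WT 4 close to it at 104.3 CPM, and highest in WT 1, at 161.7 CPM. It stood at 149 CPM in Het 5 and at 116.8 CPM in Het 4, the libraries with the least Ucp1.

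Of the transcription factors, Pparg, the nuclear receptor that governs fat cell formation, lay at 15.8, 14.9, 8.27, 15.1 and 38.9 CPM in WT and at 26.2, 34.01, 39.2, 8.08, 8.94 and 23.3 CPM in Het. WT 5 and Het 3 were highest and Het 4 lowest, with a log2 fold change of 0.33 ± 0.47. Ppara, the nuclear receptor of fatty acid oxidation, was low, with 2.71 ± 2.17 CPM in WT and 2.64 ± 1.18 CPM in Het. Cebpa, a factor of late fat cell formation, had 1.60 ± 0.75 CPM in WT and 2.11 ± 0.86 CPM in Het, a log2 fold change of 0.40 ± 0.37.

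Among the genes of uptake, Fabp3 was the one furthest from no difference. Fabp3 (ENSMUSG00000028773, chromosome 4, 130308595 to 130315463), the fatty acid carrier best known from heart and skeletal muscle, lay at 143, 133, 177, 153 and 175 CPM in WT 1 to 5 and at 130.3, 137, 124, 100.1, 91.1 and 130.5 CPM in Het 1 to 6. Het 2 lay above WT 2, and the other 5 Het libraries lay below every WT library. The log2 fold change was -0.40 ± 0.11 with an interval from -0.64 to -0.15 and an adjusted p of 0.0594 by edgeR, so it missed the threshold. The summed level of the skeletal muscle markers was also lower in Het, between 8.83 and 16.5 CPM against 21.3 to 43.1 CPM in WT, and of its 8 markers Pvalb was at 0 in every library, Ckm had at most 30 counts, and 2 of the 4 that were tested (Tnnt3 and Tnni2) fell. The other 2, Acta1 and Mylpf, had log2 fold changes of 0.55 ± 0.39 and 0.07 ± 0.26. Of 5 tested heart muscle markers 0 rose and 0 fell, their log2 fold changes were all below 0 with a median of -0.43, and Nppa had at most 1 count. The 6 heart markers summed to between 29.2 and 46.2 CPM in WT and between 21.9 and 34.3 CPM in Het, and their part in the Fabp3 value was not tested. With the skeletal muscle score as a covariate the log2 fold change of Fabp3 was -0.12 ± 0.14 (adjusted p = 0.670), and with a score of sex-linked genes it was -0.22 ± 0.15 (adjusted p = 0.651). Lpl, the lipase that frees fatty acids from circulating lipoproteins, lay between 93.9 and 286 CPM in WT and between 71.1 and 311 CPM in Het. Cd36, a fatty acid receptor at the cell surface, lay between 71.6 and 205 CPM in WT and between 81.6 and 255 CPM in Het. Their log2 fold changes of 0.38 ± 0.47 and 0.37 ± 0.33 were close to or below the size of their standard errors. Car4, a carbonic anhydrase at the cell surface, was at 14.1 ± 5.73 (WT) and 18.0 ± 9.07 CPM (Het). Slc2a4, the insulin-responsive glucose transporter GLUT4, varied 1.53-fold, with 21.7 ± 2.96 CPM in WT and 24.5 ± 3.39 CPM in Het.

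The genes of triglyceride storage and release held Dgat1, another of the 3 genes past the unadjusted threshold. Dgat1, which adds the last fatty acid to a triglyceride, lay at 58.7, 94.3, 124, 105 and 158 CPM in WT 1 to 5 and at 125, 204, 183, 158, 125 and 123 CPM in Het 1 to 6. WT 1 and WT 2 were the lowest libraries, and the log2 fold change was 0.50 ± 0.21 (adjusted p = 0.215). Without WT 1 and WT 2 it was 0.24 ± 0.18 (adjusted p = 0.575). With the skeletal muscle score, which itself differs between the groups, as a covariate it was 1.07 ± 0.26 and passed (adjusted p = 0.0440). Dgat2, which performs the same step, followed Adipoq (r 0.917), with 51.1 ± 30.6 (WT) and 43.9 ± 27.02 CPM (Het), a log2 fold change of -0.22 ± 0.52. Gpd1 and Pck1, which supply glycerol 3-phosphate, had log2 fold changes of -0.09 ± 0.52 and 0.04 ± 0.61. Pck1 spanned 11.0-fold between libraries, from 6.28 CPM in Het 5 to 69.1 CPM in WT 5. The lipases Lipe and Pnpla2 had log2 fold changes of -0.09 ± 0.30 and -0.10 ± 0.25. Cpt1b, the muscle-type entry enzyme of fatty acid oxidation in mitochondria, had 3, 7, 3, 5 and 17 counts in WT and 7, 8, 13, 2, 1 and 3 counts in Het. It was too low to be tested, and its highest and lowest libraries were again WT 5 and Het 5.

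The enzymes of fatty acid synthesis were steady between libraries except for Scd1 and Elovl6. Scd1 (ENSMUSG00000037071, chromosome 19, 44394455 to 44407879), the desaturase that makes monounsaturated fatty acids, lay at 12.5, 10.7, 8.32, 11.9 and 18.5 CPM in WT 1 to 5 and at 26.6, 26.9, 31.7, 15.8, 11.1 and 25.7 CPM in Het 1 to 6. Het 1, 2, 3 and 6 lay above every WT library, and Het 4 and Het 5, the libraries with the least Adipoq, lay within the WT range. The log2 fold change was 0.89 ± 0.26 with an interval from 0.34 to 1.44 and an adjusted p of 0.0600 by edgeR. Leaving out WT 5 gave 1.08 (adjusted p = 0.0246) and leaving out Het 5 gave 1.04 (adjusted p = 0.0143), so these libraries decide the side of the threshold. Elovl6, which elongates palmitate, averaged 7.13 ± 2.77 (WT) and 9.40 ± 3.25 CPM (Het). Acly, which makes cytosolic acetyl-CoA, was the steadiest fat gene, 1.32-fold between its lowest and highest library, with 308 ± 19.7 CPM in WT and 302 ± 34.8 CPM in Het. Acaca and Fasn, the next enzymes of the pathway, were at 11.5 ± 0.92 and 22.8 ± 3.92 CPM in WT and at 11.4 ± 1.58 and 19.3 ± 2.85 CPM in Het, with log2 fold changes of -0.02 ± 0.13 and -0.24 ± 0.14.

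**Figure D2:**
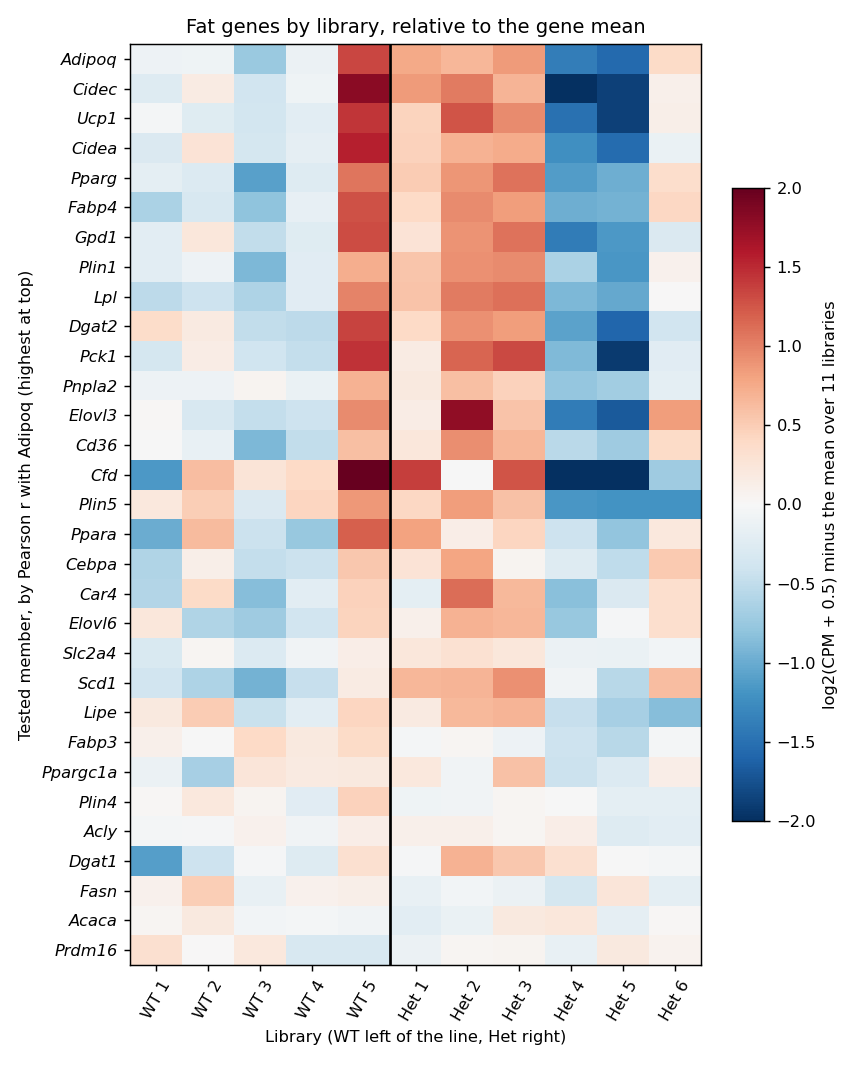
Level of each tested fat gene in each library, as log2(CPM + 0.5) minus the gene's mean over the 11 libraries, with genes ordered by their correlation with Adipoq and WT left of the line. From Adipoq down to Plin5 nearly every row is high in WT 5 and low in Het 4 and Het 5, while rows at the bottom such as Acly and Prdm16 stay near 0.

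The spread between libraries was the main feature of these genes. Of the 31 tested, 24 had a dispersion above the median of all tested genes, and 15 were among the 10% of genes with the highest dispersion. Of the 32 with counts in every library, which leaves out Lep and Retn, 12 differed more than 5-fold between their lowest and highest library. Cpt1b, too low to be tested, was among the 12, and the share of all genes with such a span was not computed. The 34 genes summed to between 2060 and 4859 CPM in WT, with WT 5 at the top, and between 1366 and 4119 CPM in Het, with Het 5 at the bottom. In bulk RNA, fewer fat cells and less fat gene RNA per cell cannot be told apart.

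Much of this spread was shared. Across the 11 libraries, Pearson's r of log2(CPM + 0.5) with Adipoq ranged from -0.353 for Prdm16 to 0.968 for Cidec, with a median of 0.744 over 30 genes. It was above 0.8 for 14 of the 30, beside 1.18% of all genes, and above 0.9 for 9, beside 0.393%. With permutation p-values (100000 resamples, two-sided) adjusted over all 14756 genes, 10 of the 30 passed 0.05, all with a positive r, beside 0.447% of all genes. These were Cidec, Ucp1, Cidea, Pparg, Fabp4, Gpd1, Plin1, Lpl, Dgat2 and Pck1. For Cidec r was 0.968 (rho 0.936, permutation p = 1e-05 for r, the smallest that these resamples can give, adjusted p = 0.0114). For Ucp1 it was 0.963 (rho 0.945, permutation p = 2e-05, adjusted p = 0.0123). Without WT 5 and Het 5, the 2 libraries farthest from the median of Adipoq, r was 0.938 for Cidec and 0.927 for Ucp1. Over the 6 Het libraries alone it was 0.984 (rho 0.714) and 0.968 (rho 0.829). No value was computed within WT, since correlations were taken over at least 6 libraries. The 11 libraries share 2 genotypes and the same protocol, and their fat genes were counted from the same RNA.

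Pnpla2, Elovl3, Cd36 and Cfd followed Adipoq with r between 0.827 and 0.892 but did not pass after adjustment over all genes (adjusted p from 0.0647 to 0.211). Prdm16 (r -0.353), Acaca (-0.129), Fasn (0.00), Dgat1 (0.237), Acly (0.362) and Plin4 (0.398) stood apart from the rest. Without WT 5 and Het 5 the r of Plin4 was -0.216 and that of Acly -0.209. Fabp3 had an r of 0.557 over all libraries (rho 0.191, permutation p = 0.0747) but of 0.954 over the 6 Het libraries alone. Likewise, Scd1 had an r of 0.673 (rho 0.718, permutation p = 0.0251, not past 0.05 after adjustment over all genes) and of 0.966 over the Het libraries. Within Het the rank correlation was 0.486 for Fabp3 and 0.943 for Scd1: Fabp3 was low in Het 4 and Het 5, but Het 3, the highest Het library in Adipoq, was the fourth in Fabp3.

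**Figure D3:**
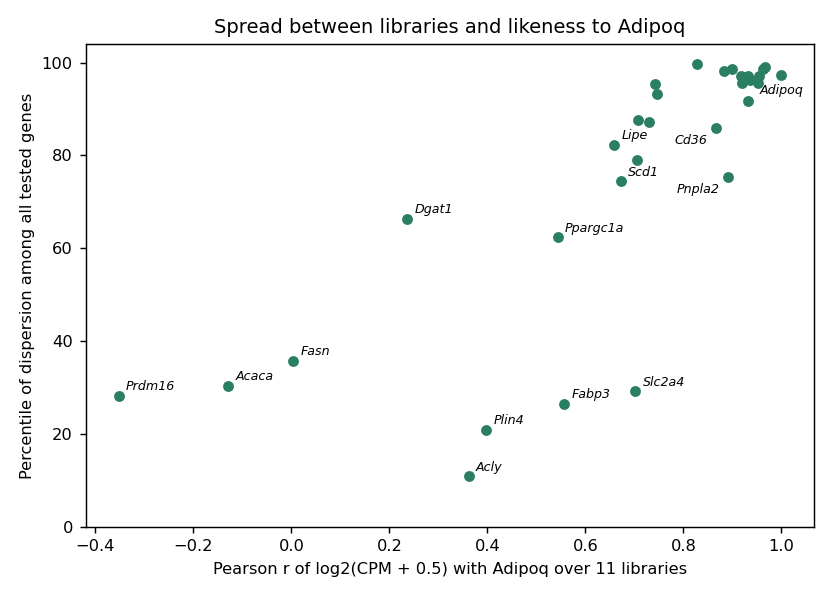
Each tested fat gene by its Pearson r with Adipoq over 11 libraries (horizontal axis) and the percentile of its dispersion among all tested genes (vertical axis). Genes with an r above 0.8 have a percentile of at least 75.4 (Pnpla2), whereas Prdm16, Acaca, Fasn, Plin4, Fabp3, Slc2a4 and Acly have one of at most 35.8 (Fasn).

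With Cdh5, the endothelial cadherin, 0 of the 31 fat genes passed, as did 0.0% of all genes, and r lay between -0.386 and 0.676. At an unadjusted permutation p under 0.05 there were 2, Car4 and Dgat1, each with an adjusted p of 0.876 over all genes. The share of all genes at that unadjusted threshold was not computed. Ckm, the muscle creatine kinase, had between 0 and 30 counts and was too low to be among the tested genes. The ratio of Ucp1 to Adipoq, chosen after the values were seen, averaged 19.5 ± 3.07 over the WT (SD, n = 5) and 18.5 ± 4.96 over the Het libraries (SD, n = 6). The log2 difference of Het from WT was -0.10 (exact permutation test, two-sided, p = 0.591 over 462 splits), and single libraries lay between 14.9 and 27.9. While Ucp1 itself spanned 9.80-fold, its ratio to Adipoq therefore stayed within this narrower range.

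Because fat gene RNA varied so much between libraries, Het was also compared with WT at equal Adipoq, with log2 CPM of Adipoq as a covariate in the edgeR fit. The standard error of the fat genes' log2 fold changes shrank to a median of 0.573 times its former size and was smaller for 28 of 30 genes, while over all genes the median ratio was 1.01. In this fit 1 of 30 fat genes rose and 1 fell, beside 2.69% and 2.54% of all 14756 genes (5.23% in all). Unadjusted p-values under 0.05 were found for 9 of the 30, beside 20.1% of all genes. The median log2 fold change of the 30 was 0.018, beside -0.0071 for all genes.

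Scd1 rose at equal Adipoq by a log2 fold change of 0.91 ± 0.12 (SE, interval 0.66 to 1.16, adjusted p = 0.00038 by edgeR). Het 1, 2, 3 and 6 held less Adipoq than WT 5 and more Scd1, and Het 4 and Het 5 held less Adipoq than WT 3 and more Scd1. The call held with each of the 11 libraries left out in turn, and with Ucp1, Cidec or Plin1 in place of Adipoq the log2 fold change was 0.95, 1.03 and 0.69. With the score of sex-linked genes beside Adipoq it was 0.82 ± 0.17 (adjusted p = 0.0442). In the 7 Xist-positive libraries alone, 5 WT and 2 Het, it was 0.82 ± 0.19 and the call was lost (adjusted p = 0.297), where 2 of 15600 genes were called at all.

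Fabp3 fell by 0.39 ± 0.09 on the log2 scale at equal Adipoq (adjusted p = 0.0216). The call was lost without WT 3 (adjusted p = 0.0527), Het 4 (0.0563) or Het 5 (0.0684), with the sex score (-0.32 ± 0.14, adjusted p = 0.485) and in the Xist-positive libraries (-0.25 ± 0.16, adjusted p = 0.945). Cd36, Lpl and Pparg had log2 fold changes of 0.41 ± 0.13, 0.40 ± 0.13 and 0.38 ± 0.13 at equal Adipoq and did not pass (adjusted p = 0.0732, 0.103 and 0.109). For Cidea and Cidec the values were -0.28 ± 0.12 and -0.34 ± 0.15 (adjusted p = 0.217 and 0.213), and for Ucp1 -0.07 ± 0.15 with an interval from -0.40 to 0.26. The Ucp1 interval at equal Adipoq thus excludes a 2-fold difference in either direction, which the interval without the covariate did not. Scd1 and Fabp3 also passed with Ucp1, Cidec or Plin1 held equal, but calls of other genes changed with the gene chosen. These fits called 763, 743 and 743 of all 14757 genes, in that order. With Ucp1 in place of Adipoq, Cd36 and Lpl also passed as higher (0.44 ± 0.12 and 0.45 ± 0.11). With Cidec held equal, Cd36, Lpl, Pparg and Fabp4 passed as higher, with log2 fold changes between 0.55 and 0.62. With Plin1 held equal, Cidea, Cidec, Dgat2 and Plin5 passed as lower, with log2 fold changes between -0.88 and -0.66. Cd36 also passed at equal Adipoq by DESeq2 (0.41 ± 0.14, adjusted p = 0.0339) and without WT 1 or without Het 1, and Lpl without Het 6. Cidec passed as lower with the column-name number beside Adipoq (-0.54 ± 0.14, adjusted p = 0.0471).

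**Figure D4:**
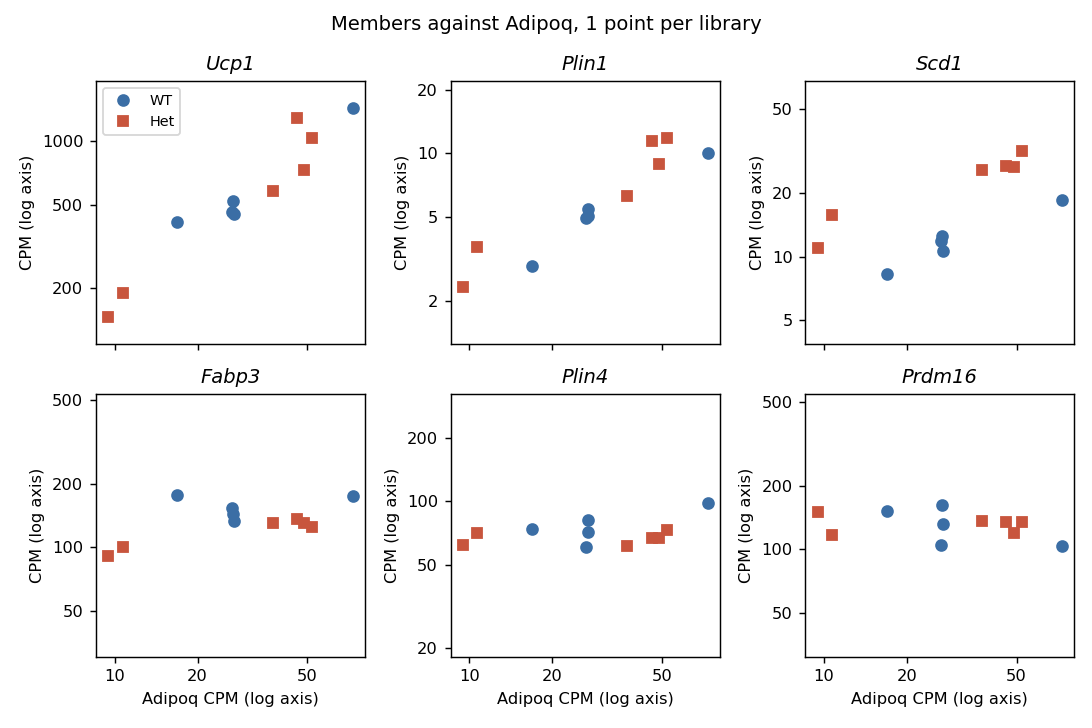
CPM of 6 fat genes against CPM of Adipoq, both on log axes, with 1 point per library (5 WT, 6 Het). Ucp1 and Plin1 climb with Adipoq in both groups, Scd1 climbs in both groups with every Het library above WT 3, at 8.32 CPM, and Plin4 and Prdm16 stay level.

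**Figure D5:**
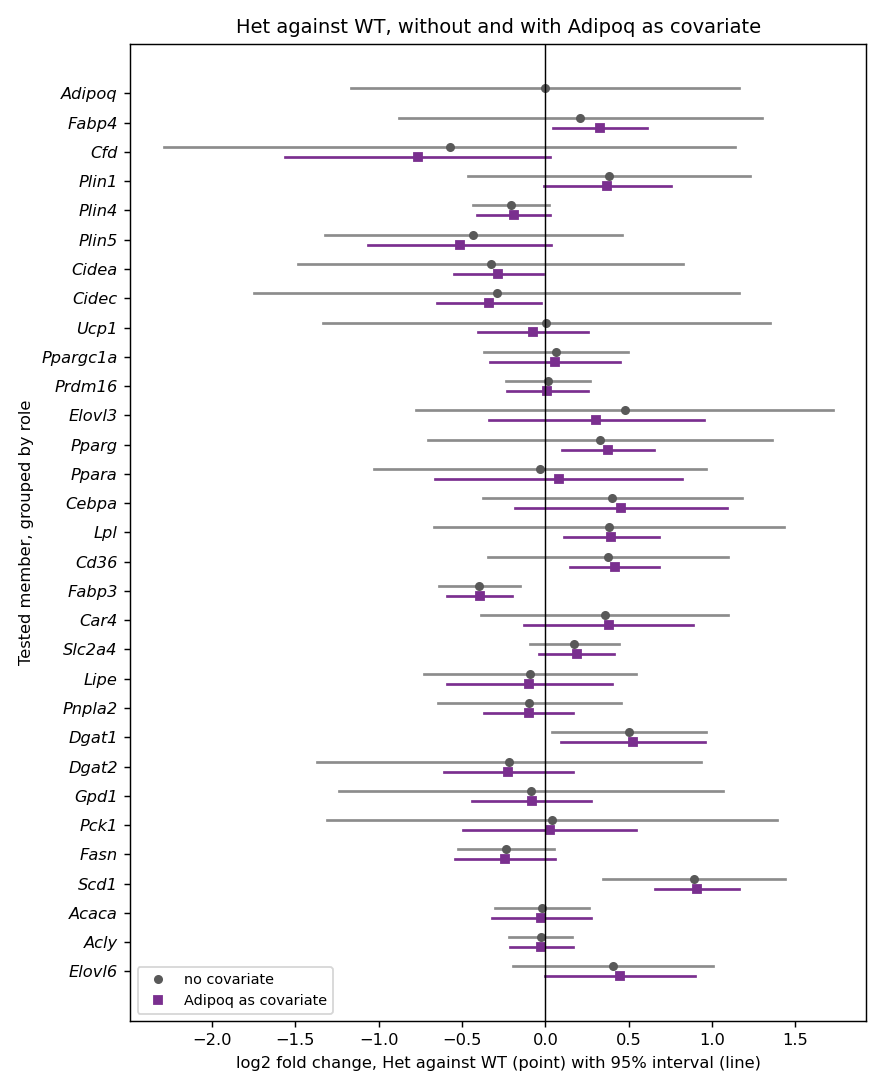
Log2 fold change of Het against WT for each tested fat gene, as a point with its 95% interval, without a covariate (grey circles) and with Adipoq as covariate (purple squares). The intervals of Ucp1, Cidea and Cidec narrow with the covariate, while Scd1 lies above 0 and Fabp3 below 0 in both fits.

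Other genes of the same pathways were read from 9 lists of related genes. Their median log2 fold changes were -0.05 for brown fat, 0.16 for white fat, -0.01 for beige fat, 0.05 for regulators, -0.07 for the lipid droplet, 0.15 for uptake, -0.17 for synthesis, -0.01 for oxidation and -0.09 for receptors, beside -0.0046 for all tested genes. Among 12 tested brown fat genes 1 rose and 0 fell. Dio2, which activates thyroid hormone in brown fat, rose by 1.15 ± 0.28 on the log2 scale (adjusted p = 0.0245 by edgeR), with 6.74 ± 1.16 (WT) and 15.04 ± 6.74 CPM (Het), and its r with Adipoq was 0.264. Its call was lost without WT 3 or without Het 2, with adjusted p up to 0.0605. It was also lost by limma voom, with the column-name number or the skeletal muscle score, and without WT 1 and WT 2 (adjusted p up to 0.0728), while over all 24 alternatives the log2 fold change lay between 0.97 and 1.56. Kcnk3, a potassium channel, was at 0.38 ± 0.14 on that scale (adjusted p = 0.128). Cox7a1 and Cox8b, cytochrome c oxidase subunits of brown fat and muscle, tracked Adipoq (r 0.969 and 0.957). They were the 2 of these 12 genes with an r above 0.9, and the median r of the 12 was 0.643. Among 10 tested white fat genes 1 rose and 1 fell. In this list 4 of the 10 had an r with Adipoq above 0.9, beside 0.393% of all genes, and the median r was 0.739. Npr3, the natriuretic peptide clearance receptor, rose by 1.05 ± 0.23 on the log2 scale (adjusted p = 0.0142), with 3.70 ± 1.24 (WT) and 7.63 ± 1.27 CPM (Het). Rbp4, which carries retinol in blood, fell by 0.70 ± 0.15 on the log2 scale (adjusted p = 0.0112), with 336 ± 69.8 (WT) and 206 ± 40.3 CPM (Het). For both, no Het library overlapped a WT library, neither tracked Adipoq (r 0.196 and 0.371), and both calls held with each library left out in turn. Both calls were lost with the sex-linked score and without the Y-positive libraries, where 125 and 34 genes were called at all. Npr3 was then at 1.05 and 1.03 on the log2 scale, and over all 24 alternatives between 0.92 and 1.44. Rbp4 was at -0.45 and -0.42, and its call was also lost with the column-name number (-0.68) and with the skeletal muscle score (-0.33).

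Of 3 tested genes reported from beige fat 0 rose and 0 fell, and Tmem26 and Tbx1 had log2 fold changes of -0.35 ± 0.14 and 0.41 ± 0.37. Of 12 other regulators of fat cell formation 0 rose and 0 fell. Zfp423, a zinc finger factor of fat cell precursors, averaged 19.9 ± 11.1 (WT) and 8.10 ± 3.91 CPM (Het, adjusted p = 0.0920), and Ebf1 was at 0.23 ± 0.09 on the log2 scale (adjusted p = 0.143). Of 11 other genes of the lipid droplet and lipolysis 0 rose and 0 fell, with Fitm1 at -0.42 ± 0.20 and Plin3 at -0.12 ± 0.08 on the log2 scale. None of these 3 lists held a gene with an r above 0.9 to Adipoq.

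Of 11 other genes of fatty acid uptake 0 rose and 0 fell. Fabp5, a relative of Fabp4, averaged 14.2 ± 1.57 (WT) and 22.7 ± 8.55 CPM (Het, adjusted p = 0.0751), and Cav1, the coat protein of caveolae, at 1553 ± 78.1 and 1867 ± 192 CPM (adjusted p = 0.0821). Of 12 other genes of fatty acid and triglyceride synthesis 0 rose and 1 fell. An r with Adipoq above 0.9 was found for 2 of them, and the median r was 0.106. Mlxipl, which encodes the glucose-responsive transcription factor ChREBP, fell by 1.41 ± 0.22 on the log2 scale (adjusted p = 0.00133), with 28.6 ± 10.2 (WT) and 10.8 ± 2.11 CPM (Het), every Het library below every WT library and an r with Adipoq of 0.082. This call held with each library left out in turn and was lost with the sex-linked score (-1.38 ± 0.33, adjusted p = 0.0761) and without the Y-positive libraries (-1.41 ± 0.37, adjusted p = 0.208). Over all 24 alternatives the log2 fold change of Mlxipl lay between -1.57 and -1.04. Fads2, a desaturase, was at -0.39 ± 0.16 on the log2 scale (adjusted p = 0.193).

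Most genes of fatty acid oxidation varied with Adipoq among the libraries. Of 13 tested 0 rose and 0 fell. An r with Adipoq above 0.8 was found for 11 and above 0.9 for 4, beside 1.18% and 0.393% of all genes. Among these 4 were Acaa2 (0.963) and Slc25a20 (0.948). Cpt1a, which encodes the liver-type entry enzyme of this pathway, had a log2 fold change of 0.12 ± 0.08. Of 7 tested receptors for adipokines and lipid hormones 0 rose and 1 fell. Cdh13, which encodes T-cadherin, a binding partner of adiponectin, fell by 0.41 ± 0.10 on the log2 scale (adjusted p = 0.0220), with 1003 ± 149.8 (WT) and 753 ± 59.1 CPM (Het). Leaving out any 1 of WT 2, WT 3, Het 2, Het 5 and Het 6 ended the Cdh13 call, with adjusted p up to 0.0632. It was also lost with the sex-linked score and the skeletal muscle score and without the Y-positive libraries, and over all 24 alternatives the log2 fold change lay between -0.49 and -0.33. Insr, the insulin receptor, was at 0.40 ± 0.12 on that scale (adjusted p = 0.0565).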

How the data were processed

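RNA of aortic arches was extracted with TriPure and PureLink and made into unstranded Nextera XT libraries, per the labels' protocols. The pooled libraries were read as single reads of 75 bases on a NextSeq 500 over 2 runs, which the files do not separate. STAR 2.5.2a, DESeq2, edgeR, limma and GRCm38 are named in the submitters' processing notes without their roles. Which counter and annotation were used is not given in the sources used here. Because these libraries do not mark strand, reads of overlapping genes on opposite strands cannot be told apart.

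The authors deposited a table of counts as whole numbers, with 48733 rows. Of these, 24 are not mouse genes and were not used. A deposited table named as CPM with TMM scaling, treated as signal, gave the gene symbols. CPM recomputed here differed from it by at most 0.806% over the fat genes. Columns were matched to samples by the group and number in their names.

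Low genes were removed with filterByExpr of edgeR 4.0.16 (R 4.3.3; a minimum count of 10 and a minimum total of 15). The remaining 14757 were scaled by TMM, and a quasi-likelihood F test with robust dispersions compared Het and WT over all 11 libraries without covariates, with Benjamini-Hochberg adjustment over all tested genes and a threshold of 0.05. P-values measure the spread between these libraries. RPKM used union exon lengths of GENCODE M21. Correlations used log2(CPM + 0.5) and 100000 permutations. Tests were checked on simulated counts. The sex score subtracts log2 CPM of Xist from the mean over the Y-linked genes Uty, Kdm5d, Eif2s3y and Ddx3y, and the skeletal muscle score is the mean log2 CPM of 7 markers.

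The fat genes, the other lists and the tests were chosen with earlier results of these data known. All 34 fat genes were named, with values in every library for those that define fat cells or passed the threshold. Of each other list the 2 tested genes with the smallest p were named, except 1 that is not reported here. Values of Dgat1 by library, and Cox7a1, Cox8b, Acaa2 and Slc25a20, were chosen after they were seen. Alternatives were RLE and upper quartile scaling, DESeq2 1.42.0, limma 3.58.1 with voom, no filter, a filter of at least 1 CPM in 5 libraries, a replicate block, covariates, and libraries left out. All variants of the fit at equal Adipoq, the adjustment of correlations over all genes and the ratio of Ucp1 to Adipoq were added after the data were seen.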

Additional observations from a re-analysis of the deposited data

Results flagged for a closer look

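A library was singled out where its distance to the nearest other library of its group took up more of the group's range than Dixon's test allows. Chance does this in about 1 of 20 independent groups. Here it happened in 14 of 68 sets of 1 gene in 1 group, but these sets share libraries and their genes vary together, so the count cannot be read against that rate. WT 5 was the high library in 12 of the 14. It held 73.2 CPM of Adipoq (next highest WT library 27.1), 234 of Fabp4 (86.1), 963 of Cidea (396), 81.8 of Cidec (25.8), 1437 of Ucp1 (518) and 11.0 of Elovl3 (5.56). It also held 38.9 CPM of Pparg (15.8), 286 of Lpl (124), 87.5 of Pnpla2 (56.0), 178 of Gpd1 (83.9), 69.1 of Pck1 (27.7) and 1.27 of Cpt1b (0.469). Het 1 was the high library for the other 2, with 0.148 CPM of Lep, where the other Het libraries had 0, and 0.517 CPM of Retn (next 0.072). Both of these rest on 2 and 7 counts.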

How the results depend on the processing

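Depth limits Lep, Retn and Cpt1b. The spread between libraries limits the 20 of 31 tested genes whose intervals reached past a 2-fold change. Over 13 alternatives other than leaving out 1 library, 334 of 402 log2 fold changes of fat genes kept their sign and side of the threshold, 8 came to pass it and 60 changed sign. None of those that changed sign passed the threshold in either fit, and the cause was not tested. Over 11 fits with 1 library left out, 289 of 341 kept both, 2 came to pass and 50 changed sign. DESeq2 called 1 fat gene as higher, 1 as lower and 1295 genes in all. Without a filter on low counts 1 fell and 667 of 28729 genes were called. With the number in the column names as covariate 1 rose and 415 genes were called in all. Without WT 1 and WT 2, 1 fell and 432 were called. With the skeletal muscle score, which itself differs between the groups, 1 rose, 422 were called and the median log2 fold change of the fat genes was 0.67. With the sex score 125 genes were called, and without the Y-positive libraries 34. Leaving out each library in turn gave 0 to 1 fat genes that rose, 0 that fell, medians of -0.07 to 0.36 and 458 (without WT 2) to 853 calls over all genes.

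Signs turned as follows, as log2 fold changes. RLE scaling gave Adipoq -0.0024, DESeq2 Adipoq -0.0042, and upper quartile scaling Acaca 0.0045. Limma voom gave Adipoq -0.11, Ucp1 -0.21, Ppara 0.19 and Pck1 -0.17. The sex score gave Cfd 0.30, Plin5 0.38, Cidea 0.31, Cidec 0.55, Prdm16 -0.042, Ppara 0.45, Lipe 0.42, Pnpla2 0.36, Dgat2 0.49, Gpd1 0.52 and Acly 0.096. The Xist-positive libraries gave Cfd 0.067, Plin5 0.27, Cidea 0.17, Cidec 0.44, Prdm16 -0.034, Ppara 0.39, Lipe 0.32, Pnpla2 0.30, Dgat2 0.34, Gpd1 0.35 and Acly 0.085. The column-name number gave Cidec 0.013, Prdm16 -0.015, Ppara 0.23, Lipe 0.079, Dgat2 0.084, Gpd1 0.26 and Acaca 0.044. Without WT 1 and WT 2 the values were Adipoq -0.19, Fabp4 -0.074, Ucp1 -0.23, Ppargc1a -0.15, Lipe 0.087, Pck1 -0.16 and Acaca 0.052. The skeletal muscle score gave Cfd 0.97, Plin5 0.16, Cidea 0.51, Cidec 0.80, Prdm16 -0.16, Ppara 0.99, Lipe 0.16, Pnpla2 0.38, Dgat2 0.26, Gpd1 0.57 and Acly 0.095. At equal Adipoq, Ucp1 was -0.074 and Ppara 0.080. With 1 library left out the ranges that crossed 0 were Adipoq -0.17 to 0.48, Ucp1 -0.29 to 0.51, Pck1 -0.29 to 0.58, Ppargc1a -0.072 to 0.15, Ppara -0.25 to 0.47, Lipe -0.27 to 0.045, Acaca -0.072 to 0.027, Prdm16 -0.058 to 0.10, Cfd -0.99 to 0.065, Cidea -0.51 to 0.19, Cidec -0.53 to 0.36, Pnpla2 -0.25 to 0.093, Dgat2 -0.45 to 0.20, Gpd1 -0.36 to 0.35, Acly -0.057 to 0.017 and Elovl3 -0.041 to 0.85.

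At equal fat gene level the counts moved with the fat gene and the libraries. With Ucp1 as covariate 3 of 29 fat genes rose, with Cidec 5 of 29 rose, and with Plin1 5 of 29 fell. These fits called 763, 743 and 743 of all 14757 genes. With the sex score beside Adipoq 0 fell, and in the Xist-positive libraries 0 rose and 0 fell. Over all genes these fits called 88 and 2. DESeq2 gave 2 that rose, the column-name number 2 that fell, and the fit without WT 1 and WT 2 gave 2 that rose. Over all genes these fits called 1344, 430 and 503. Leaving out 1 library each gave 1 to 2 that rose and 0 to 1 that fell, beside 464 to 888 calls over all genes. 2 rose without WT 1, Het 1 or Het 6.

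Whether the replicate numbers 1 to 5 pair the libraries is not labelled, and libraries of the same number showed little likeness. So few libraries cannot settle it. Deviations from the group means correlated by -0.028, 0.063, 0.025, -0.032 and -0.204 between libraries of the same number, and 0 of 5 libraries correlated best with its own number. With the replicate block 332 genes were called, 0 fat genes rose and 0 fell, and Adipoq was at -0.085, Ucp1 at -0.12, Ppara at 0.15 and Acly at 0.0067. The block also ended the calls of Dio2 (adjusted p = 0.0513), Npr3 (0.0602), Rbp4 (0.109) and Cdh13 (0.157). With the block and Adipoq together 3 fat genes rose, Scd1, Lpl (0.49) and Dgat1 (0.65), and 0 fell, with Fabp3 at -0.40 (adjusted p = 0.0715). That fit called 576 of 14553 genes.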
